A study of Mus musculus with 2 samples.

Results

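The 48 genes described here encode the subunits, regulators and assembly chaperones of the mouse proteasome. They are every gene among the 27998 counted whose symbol is Psm, a letter from a to g and a number, and all 48 had at least 1 unique molecular identifier (UMI, the tag that marks 1 captured transcript) in both libraries. Single-cell RNA-seq had been carried out on fetal ovaries at E15.5 (days of embryonic development), when female germ cells pass through meiotic prophase. The WT library pooled 4 embryos. The KO library pooled 2 embryos that were homozygous for an exon 3 deletion in Nr3c1, which encodes the glucocorticoid receptor, made with a broadly active β-actin Cre, so that by design germ cells and soma both lacked the exon. The labels give Tg(Pou5f1-EGFP)2Mnn Nr3c1tm1.1Jda as the strain of both. GFP-positive germ cells and GFP-negative soma had been sorted apart and mixed again at 60 to 40, with mesonephroi removed, so the ratio of germ cells to soma was set by the sort. With 1 library a genotype, each from pooled embryos, there was no replicate and no test was possible between KO and WT. Levels below are UMIs summed over the cells of a class and scaled by the total of that class (CPM), with exact 95% intervals in brackets that cover counting error only. Differences in level are log2 ratios of CPM.

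The KO library held 15502 cells and the WT library 9045 cells after the study's filters, with medians of 10194.5 and 15685 UMIs per cell. Clusters were named from marker genes, with the 48 proteasome genes left out of the clustering. Germ-like cells numbered 10188 in KO and 6790 in WT, granulosa-like cells 2082 and 942, theca-like cells 1936 and 842, epithelia-like cells 1054 and 395, endothelia-like cells 136 and 30, immune-like cells 50 and 31, and erythroid-like cells 56 and 15. Within the germ-like cells, a premeiotic-like cluster (801 KO and 396 WT cells; markers Rhox5, Sox2 and Utf1), a meiotic entry-like cluster (1169 and 368; Stra8 and Zglp1) and a recombination-like cluster (1508 and 952; Prdm9, Meiob, Rad51ap2) could be named. Premeiotic-like cells also held the most Stra8, at 1388 CPM in KO and 1411 CPM in WT against 1172 and 1171 CPM in meiotic entry-like cells, the most Zglp1 (71.8 and 75.2 against 43.5 and 41.2 CPM) and the most Rec8 (134 and 131 against 20.7 and 30.1 CPM). The name of the meiotic entry-like cluster rests on 3 of its 9 listed markers, of which Stra8 and Zglp1 were thus higher in the premeiotic-like cluster. Clusters 0, 1 and 3 could not, and cluster 3 (2624 and 2494 cells), led by Myom3, Cfap126 and Tdrd9, is called by its number. Cluster 6 (110 and 71 cells) carried granulosa transcripts and was kept among the germ-like cells. Transcripts at the 3′ end of Nr3c1 were at 11.6 CPM in KO and 71.9 CPM in WT germ-like cells, but 3′ tags lie outside the deleted exon and do not check its loss. The libraries shared 75 barcodes, 27 of them among the cells kept.

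The 26S proteasome degrades proteins that carry ubiquitin. Its 20S core is a barrel of α rings (Psma genes) around β rings (Psmb genes), in which Psmb5, Psmb6 and Psmb7 encode the catalytic subunits. The 19S cap recognises and unfolds substrates: its base holds ATPases (Psmc) and large scaffold subunits, and its lid (other Psmd genes) removes ubiquitin. Psmg genes encode chaperones that build the core, and Psme genes encode activators that open it without ubiquitin. Some subunits have alternates. PSMA8 (α4s) takes the place of PSMA7 in male meiotic cells, where it is known from spermatocytes, while PSMB8, PSMB9 and PSMB10 replace PSMB5, PSMB6 and PSMB7 in the immunoproteasome of immune and interferon-treated cells.

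Proteasome transcripts were abundant in every class. In WT they summed to 7247 CPM in germ-like cells, 6597 CPM in granulosa-like, 6284 CPM in theca-like and 6932 CPM in epithelia-like cells, and in KO to 7776, 6749, 6460 and 7067 CPM. Among germ-like cells the sum was highest in the premeiotic-like cluster, at 9185 CPM in KO and 8875 CPM in WT, and lower in the recombination-like cluster, at 7506 and 7082 CPM. Erythroid-like cells had the lowest sum in both libraries, 4754 and 5062 CPM. The sum hid large differences between subunits, which ran in both directions within the same complex. By group, the β ring stood at 2791 CPM in KO and 2712 CPM in WT premeiotic-like and at 2173 and 2123 CPM in recombination-like cells, and the lid at 1378 and 1299 and then at 1326 and 1242 CPM. The α ring stood at 1958 and 1927 CPM in premeiotic-like, 1290 and 1195 CPM in recombination-like and 1697 and 1596 CPM in cluster 3. The assembly chaperones stood at 836 CPM in KO and 760 CPM in WT germ-like cells and at 451 and 420 CPM in granulosa-like cells.

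Germ cells and soma differed in which subunit transcripts they carried. Of 46 members with at least 100 UMIs over both WT classes, 6 were at least 2-fold higher in germ-like than in granulosa-like cells and 7 at least 2-fold lower. Both shares were below those of all 13243 genes compared, of which 28.7% were higher and 29% lower by that limit. The median log2 ratio was 0.24 for the members and 0.12 for all genes. Psmb8 and Psmb11 had too few UMIs to be included.

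The 6 higher genes were Psma8, the cap base scaffold genes Psmd1 and Psmd2, the lid gene Psmd6 and the core assembly chaperone genes Psmg1 and Psmg4. Psmd2 stood at 335 CPM in germ-like cells of WT and at 113 CPM in its granulosa-like cells (log2 ratio 1.57 [1.49 to 1.64]). Psmd1 stood at 223 and 85.8 CPM (1.38 [1.29 to 1.47]). Psmg1 stood at 188 and 64.0 CPM (1.56 [1.46 to 1.66]), and Psmg4, a chaperone of α ring assembly, at 275 and 116 CPM (1.25 [1.17 to 1.32]). Of 7 genes listed as assembly factors 6 had a higher value in germ-like cells of WT, and the base chaperone gene Psmd9 had a lower one (−1.01 [−1.13 to −0.89]). Psmd5, counted among the 6, was nearly level, with 34.2 CPM for germ-like against 34.0 CPM for granulosa-like WT cells. How many of all genes had a higher value was not counted, so this count does not set the assembly genes apart. In KO the same ratios were 1.46 for Psmd2, 1.41 for Psmd1, 1.58 for Psmg1 and 1.18 for Psmg4.

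The 7 lower genes were Psmb10 (−3.56 [−3.75 to −3.38]), Psme1 (−3.47 [−3.54 to −3.40]), Psme2 (−2.81 [−2.89 to −2.73]), Psmb3, Psma7, Psmb9 (−1.06 [−1.52 to −0.58]) and Psmd9. Psmb3, a structural subunit of the β ring, was at 161 CPM in granulosa-like cells of WT and at 42.8 CPM in germ-like cells (log2 ratio −1.91 [−1.99 to −1.84]). Psma7, the constitutive α4 subunit, was at 350 and 143 CPM (−1.30 [−1.34 to −1.25]). The β ring genes thus did not share a direction, as Psmb2 was higher in germ-like cells (0.70 [0.65 to 0.76]), Psmb1 differed little (0.14 [0.10 to 0.18]) and Psmb5 was lower (−0.82 [−0.87 to −0.76]). The same spread was present in the lid, from Psmd6 at 1.26 [1.19 to 1.33] to Psmd7 at −0.88 [−0.94 to −0.81]. The 6 ATPase genes stayed within −0.50 and 0.51. All other members compared lay between −0.88 and 0.91. In the KO library 6 members were higher and 6 lower by 2-fold, against 25.8% and 30.2% of 13359 genes. The 6 higher genes were those of WT, and of the lower genes Psmd9 stayed inside the limit in KO (−0.83 [−0.94 to −0.73]).

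**Figure D1:**
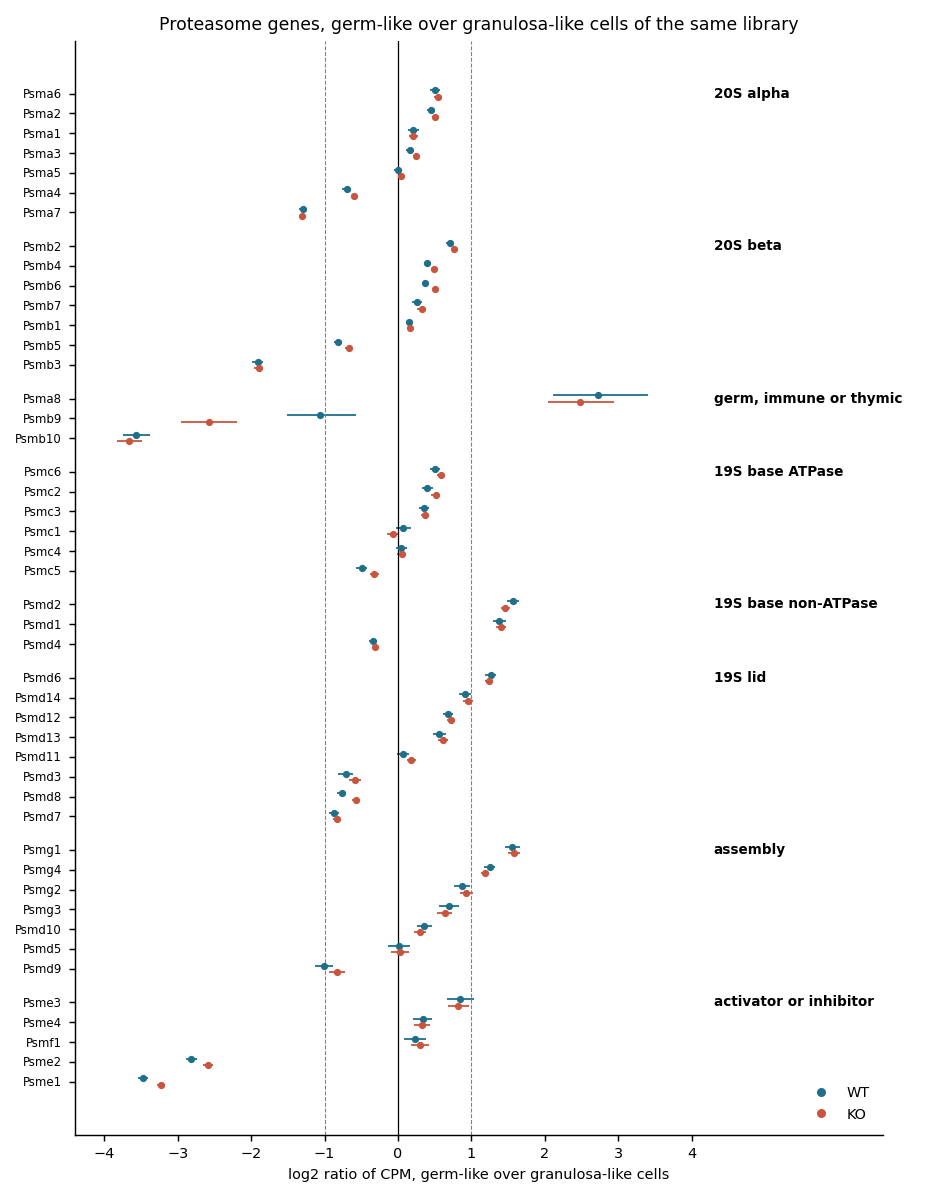
Log2 ratio of CPM, germ-like over granulosa-like cells of the same library, for the 46 members with at least 100 UMIs in WT, grouped by role. Points are single libraries (WT blue, KO red), bars are 95% counting intervals and dashed lines mark 2-fold, with Psma8 at 2.72 in WT the highest and Psmb10 at −3.56 the lowest.

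Several of these symbols share sequence with other genes, which limits how far counts can be assigned. Of the 48 members, 19 had a match of at least 95% over 200 bases in another annotated gene, and for 12 of them that gene was also in the count table. Psme2 and the retrocopy Psme2b matched at 99.4% over 794 bases, and Psmb3 and Gm4950 at 97.1% over 615 bases. Psmd2 matched Gm5422 at 96.4% over 2726 bases. Psmb9 overlaps Tap1, and Psmd1 overlaps Htr2b. Psmd9 overlaps Gm26745.

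Psma8 was the member most shifted toward germ cells, but at a low level. It reached 12.6 CPM [11.9 to 13.2] in KO and 11.4 CPM [10.8 to 12.0] in WT germ-like cells, 2.26 [1.65 to 3.03] and 1.73 [1.08 to 2.62] in granulosa-like, 3.37 and 2.13 in theca-like and 1.07 and 1.64 in epithelia-like cells. The WT ratio of germ-like to granulosa-like cells was 2.72 on the log2 scale [2.11 to 3.40]. It was 1.71 without cells holding markers of another class, which left 30 WT granulosa-like cells, and 4.68 with germ transcripts subtracted. The germ markers were also found in somatic classes. The 10 germ markers stood in granulosa-like cells at a median of 16.9% of their germ-like level in KO and 11.8% in WT, and Psma8 at 18.0% and 15.2%. In theca-like cells the markers stood at 23.5% and 16.02%, and Psma8 at 26.8% and 18.7%. In epithelia-like cells the markers stood at 11.8% and 9.76%, and Psma8 at 8.47% and 14.5%. In these 3 classes of WT, on 22, 21 and 12 UMIs, Psma8 lay above the highest of the 10 markers, which stood at 13.2%, 17.9% and 10.7%, and in KO epithelia-like cells it lay below the lowest (10.8%). The part of carried-over germ RNA in the somatic Psma8 counts was not tested. In the 30 WT endothelia-like cells no Psma8 UMI was found, where a limit of 3 counts is 8.09 CPM.

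As a share of the UMIs of Psma7 plus Psma8, Psma8 made up 8.05% [7.67 to 8.45] in KO and 7.39% [7.02 to 7.78] in WT germ-like cells. The share was 0.631% in KO and 0.492% in WT granulosa-like cells. UMIs of 3′ tags are counted per molecule and are not scaled to gene length, yet capture may differ between genes, so such shares are compared between groups of cells only. The share was 5.41% in KO and 4.15% in WT premeiotic-like cells, 4.01% and 3.28% in meiotic entry-like cells, 6.39% and 4.52% in recombination-like cells, and 12.5% [11.5 to 13.6] and 10.2% [9.50 to 10.8] in cluster 3. In cluster 1 it was 12.6% [11.3 to 13.9] in KO and 7.53% [6.56 to 8.60] in WT.

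Psma8 was not highest where recombination markers were. Its level was 18.0 CPM [15.7 to 20.6] in KO and 13.3 CPM [10.9 to 16.02] in WT premeiotic-like cells, 7.60 and 6.53 CPM at meiotic entry, 6.89 [5.79 to 8.15] and 4.07 [3.15 to 5.18] CPM in recombination-like cells, and 20.1 [18.4 to 22.0] and 17.3 [16.1 to 18.5] CPM in cluster 3. In both libraries the meiotic entry-like and recombination-like values thus lay below those of premeiotic-like cells and of cluster 3. The ratio of recombination-like to premeiotic-like cells was −1.71 [−2.17 to −1.26] in WT and −1.39 [−1.70 to −1.07] in KO, with −0.85 in WT when each cell was thinned to 3000 UMIs, and that of cluster 3 to recombination-like cells was 2.09 [1.72 to 2.47] and 1.55 [1.27 to 1.83]. When clusters were cut more finely, a later prophase-like cluster of 129 cells, with oocyte markers such as Nobox and Figla, held Psma8 at 33.4 CPM [16.7 to 59.8] in KO and 34.2 CPM [26.5 to 43.4] in WT. The KO interval, on 11 UMIs, overlaps that of cluster 3. With that cluster as the last stage the WT ratio of last to first stage was 1.40, so the direction of the stage comparison depends on which cluster is taken as the last.

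The immunoproteasome subunits had their highest levels in the immune-like cells, a small class of 81 cells led by C1qa, Fcer1g and Tyrobp. Psmb8 stood there at 173 CPM [139 to 212] in KO and 151 CPM [117 to 193] in WT, against 0.0741 and 0.0332 CPM in germ-like cells and 0.855 and 0.393 CPM in those named granulosa-like. Endothelia-like cells in KO were next, at 9.33 CPM [4.97 to 15.96]. Psmb8 made up 44.2% [37.4 to 51.3] of the Psmb5 plus Psmb8 UMIs in KO and 43.5% [35.4 to 52.0] in WT immune-like cells. Psmb9 made up 22.6% [16.8 to 29.3] and 20.5% [13.8 to 28.5] of Psmb6 plus Psmb9. The intervals of the 2 libraries overlapped for both shares.

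Psmb10 differed from its partners, as it was present outside the immune-like cells as well. It stood at 105 CPM in KO and 102 CPM in WT immune-like cells, at 42.5 [39.7 to 45.4] and 41.8 [38.3 to 45.5] CPM in granulosa-like, at 26.1 and 24.4 CPM in epithelia-like, at 18.0 and 19.2 CPM in theca-like, and at 3.37 and 3.54 CPM in germ-like cells. Its share of the Psmb7 plus Psmb10 UMIs was 45.5% and 48.3% in immune-like, 26.0% [24.5 to 27.6] and 24.4% [22.6 to 26.3] in granulosa-like, and 2.18% and 2.24% in germ-like cells. The 9 immune markers summed to 2.71 CPM in KO and 2.91 CPM in WT granulosa-like cells, against 10740 and 12894 CPM in immune-like cells, and 1 of the 9 in KO and 2 in WT were at 0. Granulosa-like cells thus held Psmb10 with hardly any immune marker RNA. Psmb11, the subunit of thymic epithelium, stayed at 0.305 CPM in KO and 0.249 CPM in WT germ-like cells and had 0 UMIs in endothelia-like, immune-like and erythroid-like cells of both libraries, where a limit of 3 counts is at most 8.13 CPM. Psmb8 (chr17:34197721-34201454, plus strand) and Psmb9 (chr17:34181987-34187764, minus strand) are neighbours in the MHC region, in the GRCm38 build, and Psmb10 lies apart (chr8:105935735-105938444, minus strand).

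The constitutive partners were present in every class. Psma7 in soma ranged from 255 CPM in KO theca-like to 469 CPM in KO epithelia-like cells and stood at 144 CPM in KO and 143 CPM in WT germ-like cells. Psmb5 stood at 141 and 129 CPM in germ-like cells, 224 and 227 CPM in granulosa-like, 191 and 201 CPM in theca-like, 249 and 247 CPM in epithelia-like and 218 and 196 CPM in immune-like cells. Psmb6 was instead higher in germ-like cells, at 497 and 421 CPM, against 351 and 325 CPM in granulosa-like and 270 and 239 CPM in immune-like cells. Psmb7 varied least, between 109 CPM in WT immune-like and 155 CPM in WT germ-like cells. These ranges leave out the erythroid-like cells.

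**Figure D2:**
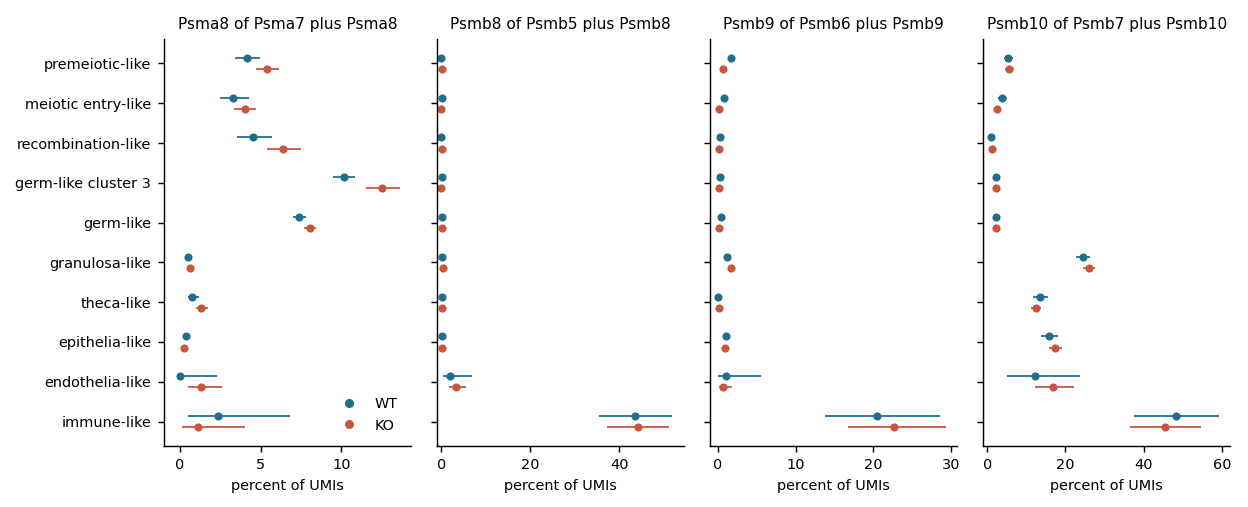
Share of UMIs, in percent, that each alternate subunit took of the sum of itself and its constitutive partner, by cell class or germ-like cluster. Points are single libraries (WT blue, KO red) and bars are 95% Clopper-Pearson intervals, with Psma8 at 12.5% in KO and 10.2% in WT cluster 3 and Psmb8 near 0 outside endothelia-like and immune-like cells.

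The members with the steepest gradient between premeiotic-like germ cells and later ones were Psme1 and Psme2, which encode the α and β subunits of the PA28 activator, a ring that opens the core and works with the immunoproteasome in peptide production. In premeiotic-like cells Psme1 stood at 140 CPM [134 to 147] in KO and 150 CPM [142 to 158] in WT, at meiotic entry at 53.7 and 73.6 CPM, in recombination-like cells at 16.4 and 15.7 CPM and in cluster 3 at 12.1 and 13.7 CPM. Psme2 stood at 116 [110 to 122] and 140 [132 to 148] CPM, then at 65.7 and 84.0, 12.6 and 13.9, and 6.86 and 12.4 CPM. The genes lie close together on chr14, Psme1 at 55578123-55581529 on the plus strand and Psme2 at 55587441-55591113 on the minus strand. In both libraries the order of the 3 named stages was the same for both genes and their intervals did not overlap from 1 named stage to the next. Recombination-like over premeiotic-like log2 ratios in WT were −3.33 [−3.55 to −3.13] for Psme2 and −3.25 [−3.45 to −3.06] for Psme1, and in KO −3.21 and −3.10. Psme2 was also among the 10 genes that led the meiotic entry-like cluster.

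Against soma, both subunits were low in germ-like cells as a whole, while premeiotic-like cells held more of each than theca-like cells did. This order did not hold for Psme2 in KO once germ transcripts were subtracted from theca-like cells. Theca-like Psme2 was then at 121 CPM in KO, against 116 CPM in KO premeiotic-like cells. Psme1 stood at 312 CPM in KO and 305 CPM in WT granulosa-like cells, 244 and 254 CPM in epithelia-like, 106 and 114 CPM in theca-like, and 33.3 and 27.5 CPM in all germ-like cells. Psme2 stood at 172 and 174 CPM in granulosa-like, 99.3 and 105 CPM in theca-like and 28.6 and 24.8 CPM in germ-like cells. Granulosa markers in the premeiotic-like cluster stood at a median of 1.10% of their granulosa-like level in KO and 0.836% in WT, and in the recombination-like cluster at 0.807% and 0.663%. The part of somatic RNA in the Psme1 and Psme2 counts of these clusters was not tested. The other activators had another pattern. Psme3 (PA28γ), a nuclear activator, was higher in germ-like than granulosa-like cells (36.3 and 20.2 CPM in WT, log2 ratio 0.85 [0.67 to 1.03]), and Psme4 (PA200), which is known from the histone exchange of spermatids, was at 52.1 and 41.3 CPM (0.34 [0.21 to 0.47]). The inhibitor gene Psmf1 was at 38.2 and 32.6 CPM.

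Other members also differed between stages, each to its own extent. Recombination-like cells were compared with premeiotic-like cells for 45 members in WT, of which 0 were at least 2-fold higher and 8 at least 2-fold lower, against 6.65% and 16.2% of 8920 genes. The median log2 ratio was −0.18 for the members and −0.06 for all genes. The 8 were Psme2, Psme1, Psmb9, Psmb5, Psma4, Psma7, Psma8 and Psmb3. In KO 0 were higher and 9 lower, against 6.16% and 16.7% of 9483 genes. In both libraries the share of lower members was close to that of all genes, so this count does not set the members apart. The 9 held Psmb10 (−2.44) and Psmd5 (−1.003) and not Psmb9, which had too few UMIs there.

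Psmb5, which encodes the chymotrypsin-like catalytic subunit, stood at 335 CPM [325 to 346] in KO and 302 CPM [291 to 314] in WT premeiotic-like cells and at 86.6 [82.5 to 90.8] and 77.6 [73.4 to 82.0] CPM in recombination-like cells (log2 ratio −1.96 [−2.06 to −1.86] in WT). Psmb6, the caspase-like catalytic subunit of the same ring, stood at 647 and 624 CPM and then at 555 and 522 CPM (−0.26 [−0.31 to −0.21] in WT). Psmb7, the trypsin-like one, stood at 147 and 156 CPM and then at 127 and 128 CPM (−0.29 [−0.39 to −0.19] in WT). The direction for Psmb7 was not stable, as its WT ratio was 0.19 with cells thinned to 3000 UMIs and 0.51 with the later prophase-like cluster as the last stage. The transcripts of the 3 catalytic subunits were thus not in constant proportion across stages. In the α ring, Psma4 (−1.93 [−2.05 to −1.82] in WT) and Psma7 (−1.84 [−1.93 to −1.74]) were far lower in recombination-like cells, while Psma5 (0.02 [−0.06 to 0.11]) was not distinguishable between the stages at this depth.

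Subunits of the cap differed less, and most were slightly lower in recombination-like cells. Of the 8 lid genes 6 had a lower value in WT, as did 4 of the 6 ATPase genes, with median log2 ratios of −0.15 and −0.14. The median of all genes was −0.06, and their share below 0 was not counted. The ATPase genes summed to 970 CPM in KO and 937 CPM in WT premeiotic-like and to 914 and 881 CPM in recombination-like cells. The 5 highest ratios of recombination-like to premeiotic-like WT cells belonged to Psmd9 (0.49 [0.16 to 0.82]), Psmd1 (0.43 [0.36 to 0.50]), the lid deubiquitinase gene Psmd14 (0.26 [0.16 to 0.36]), Psmg3 (0.20 [0.01 to 0.40]) and Psmd6 (0.18 [0.12 to 0.25]). Psmd1 was highest at meiotic entry, at 391 CPM in KO and 372 CPM in WT, and lowest in cluster 3, at 132 and 151 CPM. Its cluster 3 over recombination-like ratio of −1.24 [−1.29 to −1.19] in WT was the lowest of the 45 members compared. In that comparison 3 members were 2-fold higher (Psma8, Psmb10 and Psma4) and 1 lower, against 24% and 6.07% of 11112 genes. Psma4 stood at 234, 104, 61.2 and 180 CPM in the premeiotic-like, meiotic entry-like and recombination-like clusters and in cluster 3 of WT and at 244, 120, 79.1 and 203 CPM in KO. It was thus lowest in recombination-like cells, as Psma8 was.

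**Figure D3:**
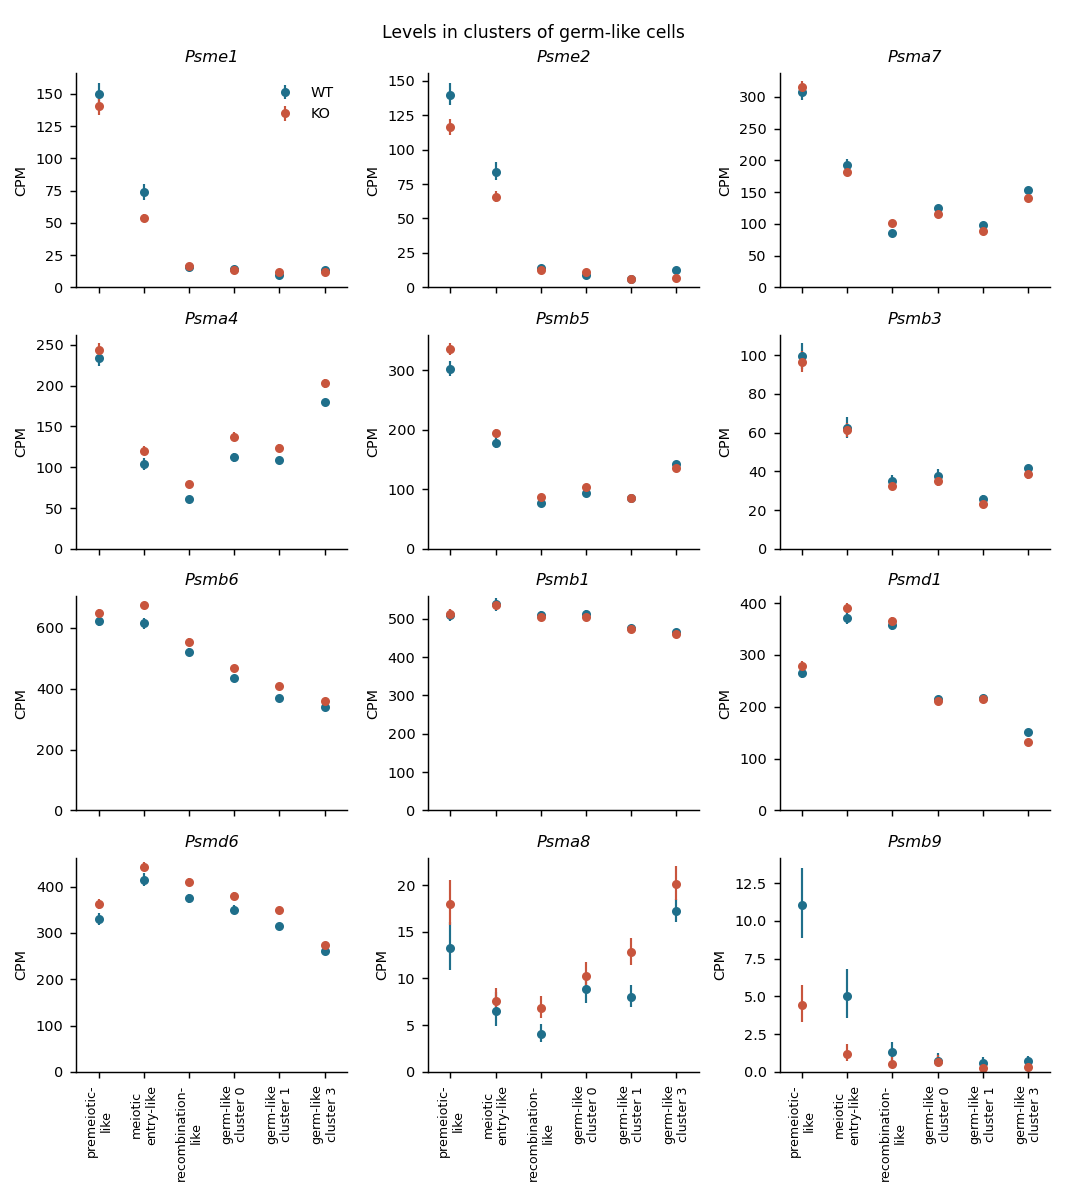
Level in CPM of 12 members in 6 clusters of germ-like cells (WT blue, KO red; points are single libraries and bars 95% Poisson intervals, often smaller than the point; the order of clusters 0, 1 and 3 is not a measured time). Psme1 and Psme2 are highest in premeiotic-like cells, Psma4 and Psma8 are lowest in recombination-like cells, and Psmb1 stays between 461 and 537 CPM.

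Promoter sequence is shown for Psme1, the activator gene with the steep gradient, and for the catalytic pair Psmb5 and Psmb6, whose transcripts differed in how they followed the stages. RefSeq promoters of build GRCm38.p6 were available for 40 of the 48 members and were searched on both strands for TGACNNNGC, the core of the antioxidant response element bound by NRF proteins, for the interferon stimulated element (TTTC, any 2 bases, TTTC) and for the glucocorticoid response element (G, any base, ACA, any 3 bases, TGT, any base, C). The first was found in 6 of 40 member genes (15%) and in 13.99% of all 27025 genes. It was present in Psmb5, Psmb6, Psmc6, Psmd9, Psmd12 and Psme4. The second was found in 5 of 40 (12.5%), Psmb3, Psmd4, Psmd9, Psme1 and Psmg4, and in 3.99% of all genes. The third was found in 0 of 40 and in 0.537% of all genes. In the stretches below, each from 250 bases before to 30 bases after the start of transcription, capitals mark the match. They lie at chr14:55578244-55578523 on the plus strand for Psme1, chr14:54617966-54618245 on the minus strand for Psmb5 and chr11:70525107-70525386 on the plus strand for Psmb6.
Psme1: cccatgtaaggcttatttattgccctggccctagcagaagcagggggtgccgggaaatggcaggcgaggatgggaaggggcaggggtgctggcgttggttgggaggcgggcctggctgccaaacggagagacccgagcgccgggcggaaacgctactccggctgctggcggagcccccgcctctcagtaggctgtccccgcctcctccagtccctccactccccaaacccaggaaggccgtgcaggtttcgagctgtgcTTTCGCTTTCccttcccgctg
Psmb5: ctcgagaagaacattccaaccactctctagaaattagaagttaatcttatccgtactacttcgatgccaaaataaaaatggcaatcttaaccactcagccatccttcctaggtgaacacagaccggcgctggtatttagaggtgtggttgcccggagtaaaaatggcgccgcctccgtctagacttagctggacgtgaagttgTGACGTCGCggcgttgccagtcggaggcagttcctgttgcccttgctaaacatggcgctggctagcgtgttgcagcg
Psmb6: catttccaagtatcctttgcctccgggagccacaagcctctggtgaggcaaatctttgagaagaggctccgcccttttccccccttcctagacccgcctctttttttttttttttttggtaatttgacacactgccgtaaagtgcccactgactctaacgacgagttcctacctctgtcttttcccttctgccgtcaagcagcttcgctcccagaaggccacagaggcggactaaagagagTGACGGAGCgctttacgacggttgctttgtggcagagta
The match in Psme1 begins 9 bases after the RefSeq start, that in Psmb5 47 bases before it and that in Psmb6 9 bases before it. The GENCODE span of Psme1 given above begins at 55578123, ahead of the whole stretch shown. By that annotation the Psme1 match lies inside the gene. Both catalytic genes held the same core, and whether it has a part in their levels across stages was not tested.

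The genotypes differed little in proteasome transcripts of germ-like cells, as they did in most genes by the limits below. The counts of members past these limits therefore do not set the members apart. On 46 members with 100 UMIs or more, the difference reached 0.25 for 0 on the scale of ln(counts per 10000 + 1), a limit passed by 0.174% of 13793 genes. The added 1 damps differences at low levels, so that Psmb9, at 1.81 CPM in WT, could not pass by being lower in KO. By a limit of 0.5 on the log2 scale, 0 members were higher in KO and 1 lower, against 2.46% and 5.44% of all genes. The median log2 ratio of KO over WT was 0.07 for the members and −0.05 for all genes, and 38 of the 46 were above 0. The share of all genes above 0 was not counted in this or the later comparisons. The 5 highest were Psme1 (0.28 [0.21 to 0.34]), Psmb6 (0.24 [0.22 to 0.26]), the chaperone gene Psmg2 (0.23 [0.19 to 0.27]), Psmd6 (0.21 [0.19 to 0.23]) and Psmg4 (0.21 [0.19 to 0.23]). The 5 lowest were Psmb9 (−0.89 [−1.22 to −0.56]), Psmd9 (−0.09 [−0.16 to −0.02]), the ATPase gene Psmc1 (−0.09 [−0.13 to −0.05]), Psmb10 (−0.07 [−0.27 to 0.13]) and Psmd5 (−0.04 [−0.10 to 0.02]).

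The small KO over WT differences of several members changed, in both directions, when the make-up of the germ-like cells was matched. Premeiotic-like and meiotic entry-like cells held 10.1% and 14.5% of the germ-like UMIs in KO and 6.92% and 6.61% in WT, whereas cluster 3 held 19.7% and 38.4%. Each KO cluster was therefore also weighted to the share its counterpart held in WT. The values for Psme1 then turned from 0.28 to −0.09 and for Psme2 from 0.21 to −0.29, and Psmd1 went from 0.19 to −0.03. Other values rose, such as Psma4 (0.08 to 0.19), Psmd7 (0.07 to 0.18) and Psmd9 (−0.09 to 0.08). The members that rose and those that fell were not counted. Within clusters, Psme1 was lower in KO at meiotic entry (−0.45 [−0.60 to −0.30]) and not distinguishable in recombination-like cells (0.06 [−0.18 to 0.30]). Psme2 was lower in KO in premeiotic-like cells (−0.27 [−0.38 to −0.15]), at meiotic entry (−0.35 [−0.49 to −0.22]) and in cluster 3 (−0.85 [−1.11 to −0.60]). In cluster 3 the median depth was 7825.5 UMIs per cell in KO and 17315.5 in WT. Markers of the early clusters also differed there, with Stra8 at 28.4 CPM in KO and 96.7 CPM in WT, Rhox5 at 5.9 and 13.1 CPM and Rec8 at 1.8 and 4.7 CPM, and a single cell held at most 4 Psme2 UMIs in KO and 13 in WT. Their part in the Psme2 difference was not tested. In granulosa-like cells Psme1 and Psme2 had ratios of 0.03 and −0.02. After weighting, the median was 0.05 for the members and −0.01 for all genes, with 34 of 46 above 0, and Psmg2 (0.26), Psmg4 (0.23) and Psmb6 (0.11) stayed higher in KO.

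Psma8 was higher in KO in the germ-like cells as a whole (0.14 [0.04 to 0.25]), and more so after weighting (0.35). It was higher in KO in premeiotic-like (0.44 [0.10 to 0.78]) and recombination-like cells (0.76 [0.33 to 1.21], on 137 and 66 UMIs) and in cluster 3 (0.22 [0.05 to 0.39]), and at meiotic entry the interval included 0 (0.22 [−0.25 to 0.71]). In clusters 0 and 1 it stood at 10.3 and 12.8 CPM in KO and at 8.85 and 8.06 CPM in WT. The KO value was thus the higher one in each of these 6 clusters.

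Psmb9 was the member with the largest difference between genotypes. Its level in germ-like cells was 0.980 CPM [0.812 to 1.17] in KO and 1.81 CPM [1.58 to 2.07] in WT, on 119 and 218 UMIs. These were spread over 118 KO cells and 188 WT cells, with at most 2 and 4 UMIs in a cell. In premeiotic-like cells, where germ-like Psmb9 was highest, it stood at 4.42 CPM [3.32 to 5.77] in KO and 11.0 CPM [8.89 to 13.5] in WT (log2 ratio −1.32 [−1.83 to −0.82]). At meiotic entry it stood at 1.19 [0.737 to 1.82] and 5.02 [3.59 to 6.84] CPM (−2.08 [−2.91 to −1.28]), on 21 and 40 UMIs, below the minimum set for a comparison. Weighting to the WT make-up gave −1.24 for all germ-like cells. In granulosa-like cells the order was the opposite, 5.83 CPM [4.82 to 6.99] in KO and 3.77 CPM [2.78 to 5.003] in WT (0.63 [0.13 to 1.14]). Tap1, the peptide transporter gene that overlaps Psmb9, stood at 0.700 CPM in KO and 0.730 CPM in WT germ-like cells (−0.06 [−0.51 to 0.38]), and at 1.23 and 2.40 CPM in premeiotic-like cells (−0.96 [−2.03 to 0.07], on 15 and 20 UMIs). B2m was lower in KO in premeiotic-like (−0.34 [−0.61 to −0.07]), meiotic entry-like (−0.39 [−0.62 to −0.17]) and recombination-like cells (−0.34 [−0.53 to −0.14]) and also in granulosa-like cells (−0.16 [−0.26 to −0.06]). H2-D1 was lower in KO in the same germ-like clusters (−0.21, −0.21 and −0.27) and higher in granulosa-like cells (0.31). H2-K1 was instead at −0.006 [−0.08 to 0.07] in premeiotic-like cells and higher in KO at meiotic entry (0.12 [0.06 to 0.17]), in recombination-like (0.10 [0.07 to 0.14]) and in granulosa-like cells (0.55 [0.44 to 0.66]). The 9 immune markers summed to 2.54 CPM in KO and 1.92 CPM in WT premeiotic-like cells, with 1 and 3 of the 9 at 0. With 1 library each, the genotype and any other difference between the libraries cannot be told apart.

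**Figure D4:**
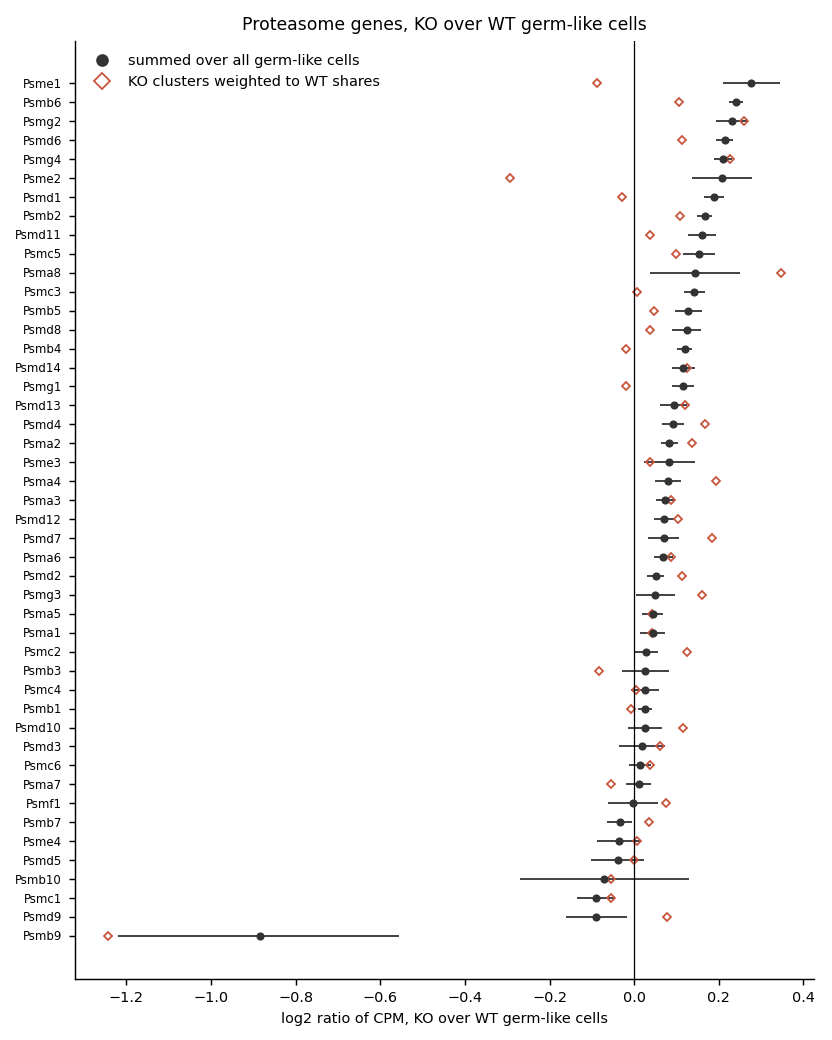
Log2 ratio of CPM, KO over WT germ-like cells, for 46 members, summed over all germ-like cells (black, with 95% counting intervals) and with the KO clusters weighted to the shares they hold in WT (open red diamonds). Psmb9 lies lowest on both, and Psme1 and Psme2 change side.

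In soma, 0 members passed the limit of 0.25 between KO and WT granulosa-like cells (0.251% of 11149 genes), theca-like cells (0.374% of 10696) or epithelia-like cells (0.231% of 9966). Few genes of any kind passed it, so these counts do not set the members apart. In granulosa-like cells 1 of 45 members, Psmb9, was higher in KO by 0.5 or more on the log2 scale, against 3.48% of genes. The medians of the members were 0.03, 0.03 and 0.05, and those of all genes −0.02, 0.01 and 0.03. The level of the germ markers, at 16.9% in KO and 11.8% in WT for granulosa-like cells, differed between the libraries as well. Of these cells 11.6% in KO and 4.99% in WT were called doublets, and the source of the germ RNA was not tested. With germ transcripts subtracted at the marker levels, the ratio for Psmd2 in granulosa-like cells went from 0.16 to −0.04 and that for Psmb6 from 0.11 to 0.04. Then 23 in place of 30 of the 45 members lay above 0 there, and the median was 0.001 for the members and −0.03 for all genes. The granulosa-like ratio for Psmb9 was 0.76 after subtraction. In theca-like cells 24 in place of 26 of 44 members then lay above 0, with medians of 0.004 for the members and 0.01 for all genes. In epithelia-like cells 30 in place of 34 of 44 did, with medians of 0.02 and 0.02.

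Genes that act with the proteasome formed a separate list. Of its 29 names 26 were in the table and 25 could be compared between WT germ-like and granulosa-like cells, where 3 were at least 2-fold higher and 5 lower, both below the 28.7% and 29% of all genes. The higher genes included AI314180 (ECM29, a proteasome adaptor, 1.63 [1.51 to 1.75]), the protease gene Ddi2 (1.41) and the deglycosylase gene Ngly1 (1.28), both of which act on the transcription factor NRF1. The lower ones included Nfe2l2 (NRF2, −2.46 [−2.56 to −2.36]) and Pomp, the maturation factor of the core (−1.02 [−1.07 to −0.97]). Nfe2l1 (NRF1) itself was at −0.80 [−0.88 to −0.73]. Pomp was also lower in recombination-like than premeiotic-like WT cells (−1.07 [−1.17 to −0.96]), where 0 of 24 listed genes were 2-fold higher and 2 lower, against 6.65% and 16.2% of all genes.

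Of 10 antigen presentation genes, 8 could be compared in WT, and their directions differed. Relative to granulosa-like cells, germ-like cells had less Tapbp (−3.99), B2m (−2.43 [−2.53 to −2.33]) and Tap1 (−2.40), which encode the peptide loading chain and the light chain of MHC class I. They had more of the heavy chain transcripts H2-K1 (2.68 [2.59 to 2.77]) and H2-D1 (2.77 [2.68 to 2.86]). H2-D1 stood at 312 CPM in premeiotic-like and 984 CPM in recombination-like WT cells, a direction opposite to that of Psme1 and Psme2. H2-K1 and H2-D1 are close relatives, so that reads may have been split between them.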

How the data were processed

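Droplet 3′ libraries (10x v3) from 1 KO and 1 WT pool were analysed. The authors aligned reads to mm10 with Cell Ranger (3.0.2 in the matrix headers) and deposited raw UMI counts per gene and cell. Their notes also name Seurat 3.2.3. Cells were kept by the study's limits (KO 1200 to 5500 genes and 3000 to 30000 UMIs, WT 1500 to 6500 and 5500 to 40000, mitochondrial share under 10%). Raw totals were 186117981 UMIs in KO and 168483330 in WT.

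Cells were clustered with scanpy 1.11.5 and leidenalg 0.10.2 (2000 variable genes without the members, 30 components, resolution 0.5), germ-like cells separately, and named from marker lists. No doublets were removed. UMIs were summed per class and library. With 1 library a group no test was made: intervals are Poisson, Clopper-Pearson or conditional binomial (scipy 1.17.1), and calls are size limits, applied to genes whose 2 sides held 100 or more UMIs in sum. The scripts were tested on simulated data. Germ transcripts in somatic classes were gauged by the median level of 10 germ markers relative to germ-like cells. The 5 highest and 5 lowest members of each main comparison, the alternate subunits with their partners and Psme1 to Psme4 were named by rule, and other members as examples after their values were seen. Members, markers, motifs and lists were chosen with earlier results of these data known. GENCODE M21 matched 27722 of 27998 gene identifiers and all 48 members. Of the associated list, Sem1 and Ecpas were counted under their older symbols (Shfm1, AI314180) and Paaf1 was not analysed here.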

Additional observations from a re-analysis of the deposited data

Results flagged for a closer look

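In 10 values the KO over WT log2 ratio of a member lay on opposite sides of 0 in 2 groups of cells, with both counting intervals beyond 0. They were found over 48 members and 6 pairs of groups, and the difference between the groups was not tested in any of them. Psmb9 had a ratio of −0.89 [−1.22 to −0.56] in germ-like cells and 0.63 [0.13 to 1.14] in granulosa-like cells. Psma4 had 0.080 [0.05 to 0.11] in germ-like and −0.085 [−0.16 to −0.01] in theca-like cells. Psma1 had 0.043 [0.01 to 0.07] in germ-like and −0.12 [−0.22 to −0.01] in epithelia-like cells. Psmd8 had 0.12 [0.09 to 0.16] in germ-like and −0.11 [−0.20 to −0.02] in epithelia-like cells. Psma6 had −0.11 [−0.19 to −0.04] in premeiotic-like and 0.086 [0.02 to 0.15] in recombination-like cells.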

How the results depend on the processing

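Over 9 main results and their alternatives, 84 of 90 values stayed within their counting interval or, for counts, within 1.5 times. The WT germ-like over granulosa-like ratio of Psma8 (2.72) was 1.71 without cells holding markers of another class, which left 30 WT granulosa-like cells, and 4.68 with germ transcripts subtracted. The median of the members there (0.24) was 0.38 without cells holding markers of another class. The count of members past 2-fold (13) was 24 at a limit of 1.5-fold, 12 higher and 12 lower. The recombination-like over premeiotic-like ratio of Psma8 in WT (−1.71) was −0.85 with cells thinned to 3000 UMIs, and Psmb7 (−0.29) was then at 0.19. At Leiden resolution 1.0 the last stage was the later prophase-like cluster (98 WT cells), and the ratios to the first stage were 1.40 for Psma8, 0.29 for Psma4, 0.51 for Psmb7, −1.20 for Psmd1 and −0.39 for Psmd6, each on the other side of 0. With KO germ-like clusters weighted to WT shares the KO over WT ratio was 0.036 for Psmb7, 0.077 for Psmd9, −0.088 for Psme1 and −0.29 for Psme2, also on the other side of 0. Apart from the changed stage, the changed weights and the changed cells, the cause was not tested. Members past 0.25 between KO and WT germ-like cells numbered 0 under every alternative run, and the median of the members stayed between 0.05 and 0.09. Only 0.174% of all genes passed that limit in the main run. The run with the limit raised to 0.5 could not have added members. Of 466 values for single named genes 456 were not called reversed. A value was called reversed only where the interval of the reported ratio excluded 0, so other changes of side were not counted. That weighting, the removal of the 75 shared barcodes and the removal of germ-like cluster 6 were chosen after seeing the data. No paired analysis was possible because each genotype had 1 library. Depth limits Psma8 in soma and Psmb9 in germ-like cells.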
